A study of Drosophila melanogaster with 9 samples.

Results

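Ovarian somatic cells (OSCs) that lack l(3)mbt were compared with wild-type OSCs by ATAC-seq, an assay that reads DNA accessibility from where a transposase can cut. The members were the 4 OSC libraries of the 9 in the series, chosen by their labels: 2 of wild-type OSCs and 2 of OSCs with a knockout of l(3)mbt (Δl(3)mbt). OSCs are a female cell line of follicle cell origin without germ cells. Both genotypes were grown in the same medium, which contained fly extract, serum, glutathione and insulin, and no treatment or time point differed between them. The other 5 libraries came from whole ovaries of the w1118 and vas-EGFP strains and served here as context. Both OSC lines came from a stock centre, and the Δl(3)mbt line was made in earlier work. For that line, whether the cells descend from 1 clone is not given in the sources used here. Replicates are described as distinct samples, without a statement that they were separate cultures, so that the spread between the 2 libraries of a genotype may be technical.

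L(3)mbt is a chromatin protein with malignant brain tumour repeats, which bind methylated histone tails. It acts with the dREAM complex, in which E2F and Myb proteins sit beside the Mip subunits, and with the LINT complex, and is known for keeping germline genes silent in somatic tissue. In ATAC-seq, promoters of active genes, distal enhancers and insulator sites appear as peaks. A peak at a promoter shows open DNA and does not by itself report expression.

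The authors called peaks in each library on its own, which gave 59420 and 22037 peaks in wild-type replicates 1 and 2, and 36659 and 27067 in Δl(3)mbt replicates 1 and 2. Read totals were not used here. The commonest local background of a peak, which follows the depth of a library, was 19.1 and 8.93 in wild-type and 18.4 and 11.4 in Δl(3)mbt OSCs. The value was higher in replicate 1 than in replicate 2 of both genotypes. At that background the weakest pileup called as a peak was 31, 19, 31 and 22, in the same order of libraries, at a fold enrichment of 1.59, 2.01, 1.65 and 1.85. A region with no peak lies below such a limit, and this does not mean that it is closed. The promoters of the somatic markers tj, Fas3, fs(1)Yb and zfh1 held a peak in all 4 libraries. Among 7 germline markers, vas, nanos, zpg and ovo also held one in all 4, aub and bam in 3 each, and AGO3 in none. A peak was present near the start of l(3)mbt in every library, so the lists do not check the deletion.

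The same number of top peaks, 22037, was taken from each library by the −log10 q of the peak caller, and overlapping peaks were merged, which gave 32939 regions. The last peak taken had a −log10 q of 8.96 and 1.33 in wild-type and of 5.81 and 5.72 in Δl(3)mbt OSCs, since the list of wild-type replicate 2 was used whole. The first peak left out was at 8.96 in wild-type replicate 1, and at 5.81 and 5.72 in Δl(3)mbt OSCs. All 4 libraries held 11707 of the regions (35.5%). Regions with a top peak in both Δl(3)mbt and in neither wild-type library are called gained here, and the reverse lost. A strict gained or strict lost region also overlapped no peak of any strength in the 2 libraries of the other genotype.

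There were 1244 gained regions, 3.78% of all regions, and 610 lost regions, 1.85%. Strict gained regions numbered 661 (2.01%) and strict lost regions 216 (0.656%). Of the gained regions, 583 had a weaker peak in wild-type replicate 1. No gained region could have one in wild-type replicate 2, since the whole list of that library was used. Of the lost regions, 352 had a weaker peak in Δl(3)mbt replicate 1, 131 in Δl(3)mbt replicate 2 and 89 in both. No test was made on these counts, since 2 against 2 libraries allow a two-sided exact permutation p of no less than 0.333.

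The libraries separated by replicate number at least as much as by genotype. A top peak in replicate 1 of both genotypes and in neither replicate 2 was found in 1474 regions (4.47%), and the reverse in 1409 (4.28%), more than were gained or lost. Wild-type replicate 1 alone held 5799 regions, and all libraries but wild-type replicate 1 shared 2878. Dropping a library loosens the definition, and the number of gained regions was 2040 without wild-type replicate 1 and 4161 without wild-type replicate 2. It was 3371 without Δl(3)mbt replicate 1 and 3156 without Δl(3)mbt replicate 2. The number of lost regions was 2767, 6419, 1242 and 840 when the same libraries were left out in turn. Lost outnumbered gained regions once a wild-type library was dropped, and gained outnumbered lost ones once a Δl(3)mbt library was dropped. In each case the larger set was the one that then needed a peak in only 1 library. The omissions therefore cannot say which genotype had more changed regions. The 12 strict gained and 12 strict lost regions with the largest −log10 q in the weaker library are described below. All of them were called under each of these 4 omissions, which follows largely from their definition and does not show stability.

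**Figure D1:**
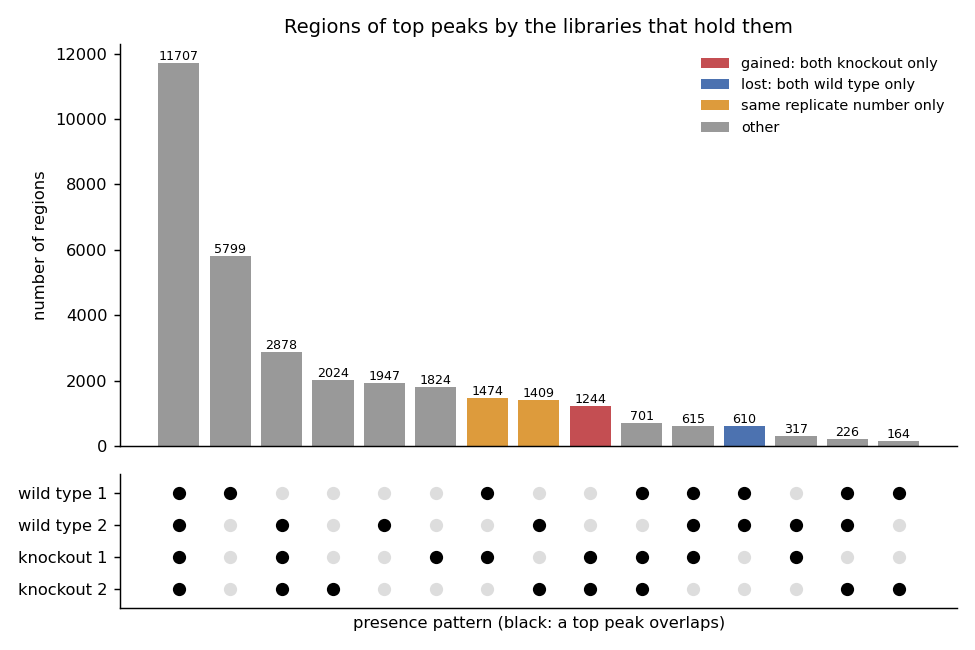
Number of merged regions of the 22037 top peaks per library, by the libraries that hold them. Each bar is one presence pattern, spelled out by the black dots under it. Gained regions (red, 1244) and lost regions (blue, 610) were fewer than those held only by replicates 1 (1474) or only by replicates 2 (1409, both orange).

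Sequence at the summit is shown first for 6 regions that lie outside annotated exons: a pair of strict gained, a pair of strict lost, and a pair with a peak in all 4 libraries whose genotypes stood apart. They come from the RefSeq sequence of the Release 6 assembly of the dm6 coordinates, forward strand, 5′ to 3′, the summit with 100 bases on either side. Capitals mark matches, on either strand, to the 10 short motifs searched.
E2f2 downstream, gained (chr2L:21153454-21153654): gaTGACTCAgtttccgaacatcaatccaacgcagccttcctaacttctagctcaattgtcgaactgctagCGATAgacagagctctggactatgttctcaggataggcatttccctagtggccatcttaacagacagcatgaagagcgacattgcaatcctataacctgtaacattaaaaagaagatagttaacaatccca
ko intron, gained (chr3L:21109023-21109223): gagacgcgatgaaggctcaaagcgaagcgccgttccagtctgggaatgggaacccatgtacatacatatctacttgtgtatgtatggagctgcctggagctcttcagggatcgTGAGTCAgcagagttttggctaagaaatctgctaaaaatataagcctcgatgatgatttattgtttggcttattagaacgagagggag
AGO3 intron, lost (chr3L:23580691-23580891): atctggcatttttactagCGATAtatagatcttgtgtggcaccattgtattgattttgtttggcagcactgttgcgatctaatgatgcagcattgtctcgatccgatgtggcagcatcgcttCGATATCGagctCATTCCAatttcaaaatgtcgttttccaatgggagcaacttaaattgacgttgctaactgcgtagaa
kek5 intron, lost (chrX:19359642-19359842): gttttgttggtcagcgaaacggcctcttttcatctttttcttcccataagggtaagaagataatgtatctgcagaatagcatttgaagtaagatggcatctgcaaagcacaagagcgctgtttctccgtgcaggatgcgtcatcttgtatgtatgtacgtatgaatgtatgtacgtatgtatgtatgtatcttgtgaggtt
scrib intron, shared (chr3R:26557118-26557318): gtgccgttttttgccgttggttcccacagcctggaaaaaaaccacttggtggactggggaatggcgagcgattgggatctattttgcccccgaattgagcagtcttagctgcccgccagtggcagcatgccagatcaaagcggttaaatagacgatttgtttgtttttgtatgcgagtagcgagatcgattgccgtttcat
Snap25 intron, shared (chr3L:24205309-24205509): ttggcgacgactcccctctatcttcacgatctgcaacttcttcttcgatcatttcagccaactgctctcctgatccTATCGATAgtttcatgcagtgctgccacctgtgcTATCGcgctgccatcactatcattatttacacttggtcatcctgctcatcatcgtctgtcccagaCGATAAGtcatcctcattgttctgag
Both gained windows hold TGANTCA, the AP-1 motif, as TGACTCA at E2f2 and TGAGTCA at ko. They were picked for it after the matches were seen, and the windows of the other 10 strict gained regions of the 12 named by rank do not hold it. The lost AGO3 window and the Snap25 window hold CGATA, the core shared by BEAF-32 and DREF, several times. In the kek5 and scrib windows no motif of the 10 was matched.

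Of the 12 strict gained regions with the largest −log10 q in the weaker library, 8 lay within 1 kb of a TSS, 3 in introns and 1 between genes. The first, at 5.28-fold and 5.76-fold enrichment in Δl(3)mbt replicates 1 and 2, was at Nrx-1 (3R, 22469823 to 22470054, 476 bp from a transcription start site, TSS). Nrx-1 encodes neurexin, an adhesion protein of the synapse. A second strict gained region of Nrx-1 (3R, 22469350 to 22469543, 57 bp from the TSS) had 3.92 and 4.6. A further one, 8 bp from the TSS (22468874 to 22469247), had 6.3 and 7.86 in Δl(3)mbt OSCs and a weaker peak of 2.03 in wild-type replicate 1. Next to them a region with a peak in every library (22470157 to 22470546) had 2.9 and 2.62 in wild-type and 5.09 and 6.06 in Δl(3)mbt OSCs. Nrx-1 thus had 4 neighbouring peaks that were each higher in both Δl(3)mbt libraries or called only there, and none of the 3 gained ones had a peak in an ovary library.

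Other strict gained promoters were those of CG9795 and Syt14, a synaptotagmin, which were 4.68-fold and 5.53-fold enriched (3R, 4319073 to 4319216), and of tty, of the tweety family of chloride channels, at 3.39 and 4.18 (X, 21338203 to 21338435). The promoter of nrm, an immunoglobulin-domain adhesion protein, had 4.34 and 7.34 (3L, 22998089 to 22998542) and a peak in 4 of the 5 ovary libraries. In an intron of nrm, a region with a peak in every OSC library went the other way. That region had 7.3 and 6.65 in wild-type and 3.15 and 5.24 in Δl(3)mbt OSCs. The promoter of Alg11, a mannosyltransferase of N-glycan synthesis, and CG7166 had 4.85 and 8.55 (3L, 21625648 to 21625839) and no ovary peak. CG31997 on chromosome 4 (156034 to 156343) had 4.44 and 7.1 and was open in all 5 ovary libraries, at 4.89-fold to 17.7-fold. The remaining promoter, of PolA2 and CG31064, is described with the replication genes below. In all 12 strict gained regions the fold enrichment was higher in Δl(3)mbt replicate 2 than in replicate 1.

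Away from promoters, the strict gained region nearest to E2f2 (2L, 21153414 to 21153625) lay downstream of the gene, 2678 bp from a TSS, and had 4.29 and 5.38. E2f2 encodes the repressive E2F of the dREAM complex. The intron of ko, a gene named for its part in motor axon targeting, had 4.39 and 5.89 (3L, 21109007 to 21109322). An intron of CG8745 had 4.75 and 5.46 (3L, 13864521 to 13864858). These 3 regions had no peak in an ovary library. Over all 12 strict gained regions, 6 had no ovary peak and 2 had one in all 5 ovary libraries.

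Of the 12 strict lost regions ranked likewise, 6 lay in introns, 5 between genes and 1 at a TSS. The first lay in an intron of AGO3, a PIWI protein of the germline (3L, 23580605 to 23580931, 24866 bp from a TSS), at 6.21 and 9.17 in wild-type replicates 1 and 2. A second in the same gene, inside an annotated mobile element (23583632 to 23583840), had 4.22 and 6.45. Mobile elements made up 66.9% and 66.7% of the surrounding 100 kb, and 58.3% or more at 4 of the 12 regions. The promoter of AGO3 itself had no peak in any OSC library. An intron of kek5, a transmembrane protein with leucine-rich repeats, had 7.86 and 6.19 (X, 19359373 to 19360053).

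An intron of Scp1, a sarcoplasmic calcium-binding protein, held a pair of strict lost regions on 2R, with 6.35 and 7.08 (2944880 to 2945192) and 3.97 and 5.23 (2946088 to 2946346). BckdhB, of branched-chain amino acid breakdown, was the nearest gene of another pair on 2R, with 5.06 and 5.64 (1579415 to 1579717) and 3.82 and 6.35 (1577786 to 1578035). Nearby, an intronic region of BckdhB with a peak in all 4 libraries had 9.04 and 7.05 in wild-type and 3.77 and 3.55 in Δl(3)mbt OSCs (1591260 to 1591927). These 3 regions were each higher in both wild-type libraries or called only there.

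The strict lost region nearest to Vm26Aa, a vitelline membrane protein that follicle cells make, had 5.67 and 6.78 (2L, 5961381 to 5962037). Wwox, an oxidoreductase with WW domains, had 3.99 and 5.26 in an intron (2L, 8000479 to 8001188), and was the only one of the 12 with a peak in all 5 ovary libraries. The other 3 were at or near long noncoding RNA genes, lncRNA:CR43967 (4.92 and 8.76), lncRNA:CR45286 (4.94 and 5.51) and lncRNA:CR42646 (3.57 and 4.94, in a mobile element). Of the 12, 9 had no ovary peak.

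**Figure D2:**
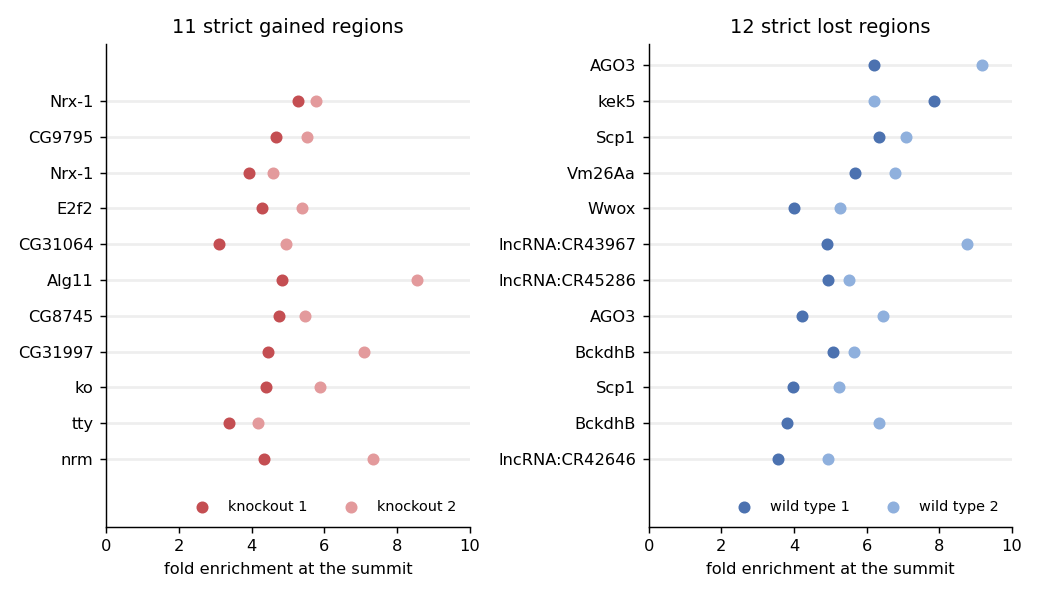
Fold enrichment at the summit (x axis) of 11 of the 12 strict gained (left) and the 12 strict lost regions (right) with the largest −log10 q in the weaker of their 2 libraries, each row being 1 region named by its gene. Dark dots are replicate 1 and light dots replicate 2 of the genotype that holds the peak, and the other genotype has no peak to plot. Gained regions reach from 3.11 to 8.55 and lost ones from 3.57 to 9.17.

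Changed regions had lower fold enrichment than those held by all 4 libraries. Presence was set by a cut on the strength of the same peaks, so this follows in part from the definition. Gained regions had a median fold enrichment of 2.62 and 3.14 in Δl(3)mbt replicates 1 and 2, with a range of 1.82 to 6.3 and 1.86 to 8.95. Lost regions had 2.99 and 2.62 in wild-type replicates 1 and 2, with ranges of 1.92 to 7.86 and 1.75 to 9.17. Regions held by all 4 libraries had medians of 4.28 and 4.92 in wild-type and of 4.5 and 5.67 in Δl(3)mbt OSCs. Gained regions were also narrow, with a median of 182 bp against 331 bp for lost and 371 bp for regions of all 4 libraries. Merging the peaks of 4 libraries can by itself widen a region.

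Within 1 kb of a TSS were 56.6% of the gained regions (95% Wilson interval 53.8 to 59.3, counting error only) and 32.6% of the lost ones (29.0 to 36.4), beside 56.5% of all regions and 71.7% of those in all 4 libraries. Coding exons held 1.85% of gained, 27.0% of lost and 14.3% of all regions. Introns and intergenic DNA held 40.1% of gained and 39.2% of lost regions, beside 27.6% of all. Among strict regions the shares at promoters were 57.6% for gained and 28.2% for lost, and 49.5% of the strict lost lay in introns or between genes.

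The position of regions also moved with replicate number. Those held only by replicates 1 lay in coding exons in 46.5% of cases and at promoters in 34.9%, and those held only by replicates 2 in 0.355% and 76.7%. Base composition moved with both splits. The median GC content of these windows was 44.8% for gained and 55.7% for lost regions, and 59.7% and 36.3% for regions of replicates 1 only and replicates 2 only, beside 48.3% for all. The part that library quality has in the difference between gained and lost regions was not tested.

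**Figure D3:**
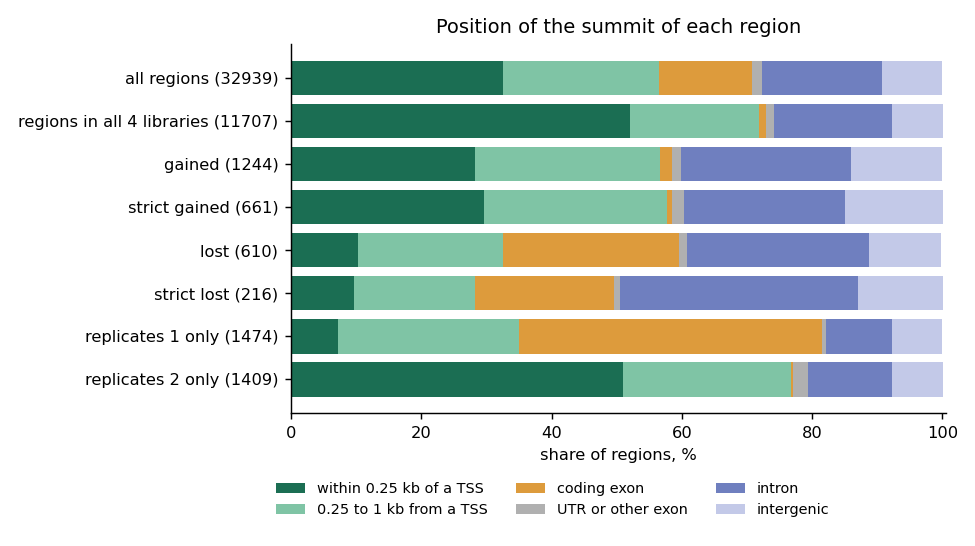
Share of regions (x axis, in percent) by the position of their summit, for 8 sets of regions with their numbers in brackets. Lost regions have 27.0% in coding exons against 1.85% of gained ones, and regions of replicates 1 only have 46.5%.

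Ovary peaks gave a further description of the changed regions. No peak of the 5 ovary libraries overlapped 51.9% of gained and 73.4% of lost regions, beside 47.0% of all regions and 16.5% of those in all 4 OSC libraries. All 5 ovary libraries held 16.5% of gained, 18.3% of strict gained and 9.51% of lost regions, beside 30.9% of all. The replicate 1 and replicate 2 sets lacked an ovary peak in 79.2% and 25.3% of cases.

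The summit lay in an annotated mobile element in 0.482% of gained regions (6), 2.62% of lost regions (16) and 5.09% of strict lost regions (11), beside 0.805% of all. In the 880 regions where mobile elements made up 20% or more of the surrounding 100 kb, 3.75% were gained and 3.75% were lost. In the other classes of mobile element content the lost share was 1.6% to 2.23% and the gained share 3.63% to 4.07%. Reads in repeats map less surely, and what the mapping has to do with these shares was not tested. By chromosome, X and 2R each held 27.8% of the strict lost regions, beside 19.4% and 19.3% of all regions, and 3R held 26.2% of the gained, beside 22.6% of all. Every 500 kb window from 1000001 to 5000000 on 2R and from 23000001 to 25000000 on 3L held lost but no gained regions. The highest counts were 4 of 18 regions (2R, from 2500001) and 4 of 46 (3L, from 23000001). The named strict lost regions of AGO3, lncRNA:CR43967, Scp1 and BckdhB lie there. On 3R the windows up to 4000000 held no gained regions, and only the first held a lost one. These windows were picked after their values were seen, without a test.

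Of 10 motifs counted in the windows of the summit and 100 bases on either side, TGANTCA had the widest spread in ratio between strict gained and strict lost regions. It was found, on either strand, in 8.52% of gained, 10.3% of strict gained, 2.79% of lost and 1.85% of strict lost regions, beside 4.82% of all. Beyond 1 kb of a TSS the shares were 14.3% of strict gained and 2.58% of strict lost regions (4 of 155). All such regions held it in 5.28% of cases, and those in all 4 libraries in 7.04%. Regions of replicates 1 only and replicates 2 only held it there in 2.82% and 11.9% of cases, so the share also moved with replicate number. CCGTTA, a motif of Ovo, was in 11% of strict gained and 1.64% of strict lost regions (1 of 61) within 1 kb of a TSS, beside 6.26% of all such regions and 7.24% of those in all 4 libraries. Promoter regions of replicates 1 only and replicates 2 only held it in 3.5% and 5.93% of cases. Beyond 1 kb the order turned, with 2.86% of strict gained and 3.23% of strict lost regions. GAGAGAG, the site of the GAGA factor Trl, was in 5.95% of gained and 5.08% of lost regions, beside 12.3% of those in all 4 libraries and 6.93% of all.

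The other 7 motifs follow. CGATA was in 24.9% of gained and 20.0% of lost regions, beside 26.8% of all, and GATAAG, of GATA factors, in 8.52% and 5.74%, beside 7.74%. The last can overlap CGATA. TTNNCGCG and GGCGGGA, of E2F, were in 6.99% and 1.37% of gained and 5.9% and 3.77% of lost regions, beside 7.43% and 2.51% of all. CACGTG, the E-box, was in 2.09% and 3.61%, beside 3.39%. CATTCCA, of Scalloped, was in 2.89% and 2.3%, beside 2.97%, and TTCNNNGAA, of Stat92E, in 4.74% and 2.46%, beside 4.24%. TGANTCA was also in 2.37% of regions held by replicates 1 only and 6.74% of those held by replicates 2 only, so that the set with the lower GC content had the higher share. A match is a description of letters and not of binding.

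By gene, 11241 genes had a region within 1 kb of a TSS. Of these, 997 (8.87%) had a gained and 254 (2.26%) a lost region there, and 562 (5%) and 78 (0.694%) had a strict one. The counts in the lists below are read against these shares. No test over a list was made.

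Members of the complexes in which L(3)mbt acts had a gained promoter region in 2 of 14 cases and a lost one in 1. Myb, a DNA-binding subunit of dREAM, had a strict gained region 27 bp from its TSS, at 2.96 and 3.47. E2f2 had a strict lost region at the promoter it shares with Mpp6, at 2.71 and 2.72 in wild-type OSCs, in contrast to the gained region downstream of the gene, whose sequence is printed above. l(3)mbt had a pair of strict gained regions, 553 and 239 bp from the TSS, at 1.84 and 2.12 and at 2.47 and 2.53.

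Replication genes had 3 gained and 0 lost of 20. Orc2, which helps mark replication origins, shares a promoter with Kots and was at 3.35 and 5.62. PolA2, of the primase complex, was at 3.11 and 4.95, and dup, the Cdt1 licensing factor, at 2.15 and 2.56. All 3 were strict gained, and 5, 3 and 4 of the ovary libraries held a peak there.

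Germline development genes had 4 gained and 0 lost of 22. At ovo, a zinc-finger factor of the female germline, a pair of strict gained regions over internal start sites had 2.82 and 3.69, and 3.33 and 5.16, while a peak upstream of them was present in all 4 libraries (3.42 and 5.64 in wild-type, 5.21 and 7.8 in Δl(3)mbt OSCs). swa, of oocyte RNA localization, was strict gained at 2.82 and 3.91. bgcn and zpg, of germline stem cell differentiation and gap junctions, were gained but had a weaker peak in wild-type replicate 1, at 2.07 against 2.72 and 3.67 for bgcn and at 2.59 against 2.72 and 3.14 for zpg. The zpg values of wild-type replicate 1 and Δl(3)mbt replicate 1 thus nearly coincide. Germline piRNA genes had 2 gained of 10, tej (3.3 and 4.6) and Nxf3 (2.36 and 2.74), and 0 lost.

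The balance was the other way for follicle cell identity genes, with 1 gained and 3 lost of 16. br, the Broad zinc-finger factor of the ecdysone response, was strict lost at 1.92 and 1.77, near the weakest levels called. slbo, the C/EBP of border cells, was lost at 2.51 and 3.05 in wild-type OSCs but had weaker peaks of 1.99 and 2.56 in Δl(3)mbt OSCs. bond, of very long fatty acid synthesis, was lost at 2.54 and 1.99, with a peak of 2.41 in Δl(3)mbt replicate 2. ttk, a BTB zinc-finger repressor, was gained at 1.96 and 2.06, against 1.82 in wild-type replicate 1. Apart from br these values overlapped or nearly overlapped between genotypes.

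In the Hippo pathway 2 of 16 were gained and 1 was lost. sav, the Salvador adaptor, was strict gained at 3.16 and 3.3, and dally, a glypican, was gained at 2.18 and 2.5 against 2.04 in wild-type replicate 1. In an intron of dally, a region with a peak in every library went the other way. That region had 6.66 and 5.09 in wild-type and 2.84 and 2.58 in Δl(3)mbt OSCs. Diap1, the inhibitor of apoptosis that Yorkie activates, was strict lost at 2.95 and 2.7. A further Diap1 region with a peak in every library had 6.06 and 4.04 in wild-type and 2.46 and 2.83 in Δl(3)mbt OSCs, without overlap. Neuronal genes had 2 gained of 9, Nrx-1 and unc-13, and 0 lost. The gained region of unc-13 had 2.81 and 2.69 against a weaker peak of 2.48 in wild-type replicate 1.

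Adhesion and cytoskeleton genes had 3 gained of 18, shg (2.68 and 2.76), which encodes E-cadherin, its partner arm (2.62 and 2.78), and rhea (2.13 and 2.59), which encodes talin and had 2.14 in wild-type replicate 1. p130CAS, a focal adhesion adaptor, was lost, with 3.44 and 2.36 in wild-type OSCs and a weaker 2.01 in Δl(3)mbt replicate 1. The remaining lists had few: pita of 10 insulator genes (3.27 and 2.98), pnt of 23 follicle signalling genes (2.3 and 3.43), Tm1 of 9 muscle genes and RpS3 of 16 housekeeping genes were gained, and none was lost. The 13 Hox and Polycomb target genes, 6 testis genes and 7 hemocyte genes had 0 of either kind.

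Some genes held several changed regions. Of the 22 regions assigned to beat-IIIc, an immunoglobulin protein of axon guidance, 6 were gained. heph, the polypyrimidine tract binding protein, and spri, a Ras-Rab interactor, had 5 gained of 33 each, and CadN, N-cadherin, had 4 of 31. hwt had 4 gained of 14, the highest share of these genes, and pyd, the fly ZO-1, had 4 of 36. kek5 had 5 lost of 24, and kirre, an adhesion protein of myoblast fusion, had 4 lost of 36. These are the genes with the highest numbers, chosen after their values were seen, and longer genes have more regions that could change.

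The strength of peaks was then compared at the 14167 regions with a peak of any strength in every OSC library. The highest fold enrichment of each library was taken on the log2 scale and quantile normalized. Across regions the scaled values of wild-type replicates 1 and 2 correlated at 0.71, those of Δl(3)mbt replicates at 0.88, and wild-type replicate 2 at 0.82 and 0.87 with Δl(3)mbt replicates 1 and 2. Wild-type replicate 1 correlated at 0.83 with Δl(3)mbt replicate 1 and at 0.70 with Δl(3)mbt replicate 2. The wild-type libraries were hence less alike than either was to Δl(3)mbt replicate 1. limma's moderated test with Benjamini-Hochberg adjustment called 0 regions higher (0%) and 0 lower (0%) at an adjusted p of 0.05. The unadjusted p was below 0.05 at 584 regions, 290 higher and 294 lower, and the smallest adjusted p was 0.131. On summit pileups in place of fold enrichment, limma called 2 higher and 0 lower.

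Without wild-type replicate 1 the same limma fit called 19 higher and 8 lower, and without wild-type replicate 2 it called 8 and 7. Without Δl(3)mbt replicate 1 it called 1 and 3, and without Δl(3)mbt replicate 2 it called 0 and 0. Each of these fits takes the spread from the genotype with 2 libraries and assumes that the lone library varies alike.

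The 5 regions with the smallest p in each direction are described next, none of them past the threshold. The promoter of MP1, a melanization protease (3R, 4307570 to 4308206), had 2.73 and 3.09 in wild-type and 7.15 and 8.69 in Δl(3)mbt OSCs, a log2 difference of 1.33 ± 0.25 (SE, limma adjusted p = 0.296). CG10126 (3R, 12857552 to 12857897) had 3.77 and 4.03 against 7.69 and 13.3. The promoter of Syngr, synaptogyrin, and CG30484 on 2R had 6.06 and 5.94 against 12.4 and 12.6. unc-13, of synaptic vesicle priming, had 2.98 and 2.72 against 6.66 and 8.02 at a promoter on chromosome 4, and an intron of scrib, of epithelial polarity, had 6.55 and 6.24 against 10.9 and 12.9. In all 5 the values did not overlap.

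In the other direction an intron of Snap25, a SNARE protein (3L, 24205132 to 24205571), had 10.4 and 8.46 in wild-type and 2.74 and 3.14 in Δl(3)mbt OSCs, a log2 difference of −1.75 ± 0.25 (SE, limma adjusted p = 0.131), and no ovary peak. The promoter of CG31676 (2L, 20840371 to 20840943) had 10.9 and 7.79 against 3.72 and 3.47, and Gr39a, a gustatory receptor gene (2L, 21296197 to 21297046), 7.6 and 9.15 against 3.05 and 3.39. An intron of Ugt50B3, a UDP-glycosyltransferase, on 2R had 7.4 and 11.5 against 3.2 and 4.03, where mobile elements made up 56.3% of the surrounding 100 kb. An intron of Mnr (X, 21263682 to 21264258) had 9.68 and 7.16 against 3.06 and 3.06. In these 5 the values did not overlap either.

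Both Δl(3)mbt libraries exceeded both wild-type libraries by at least 1.5-fold on the scaled values at 49 regions (0.346%), and lay below both by as much at 55 (0.388%). This count was chosen after the data were seen and carries no test. Of the 49 higher regions, 27 lay within 1 kb of a TSS, and of the 55 lower ones 21 did. Of all 14167 shared regions, 9849 did, so that both sets held a smaller share of promoters. Among the higher were the promoter of BicC, a translational regulator of the oocyte (2.28 and 4.43 against 7.05 and 9.9), the netrin receptor unc-5 (4.47 and 3.12 against 7.18 and 9.6), and an intron of Sema2b, a semaphorin (3.97 and 3.83 against 7.02 and 10.2). Among the lower were an intron of the netrin receptor fra (5.61 and 9.27 against 3.61 and 4.35), the promoter of dimm, a bHLH factor of neuroendocrine cells (12.5 and 8.24 against 5.32 and 5.24), and sgg, the GSK3 kinase (6.1 and 5.16 against 2.32 and 3.06). An intron of kek5 (3.87 and 6.04 against 2.12 and 2.66) and one of kirre (10.9 and 8.36 against 5.27 and 5.08) were lower as well, beside their lost regions. Shared regions within 1 kb of a TSS of kirre went the other way, with a mean log2 difference of 0.69.

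**Figure D4:**
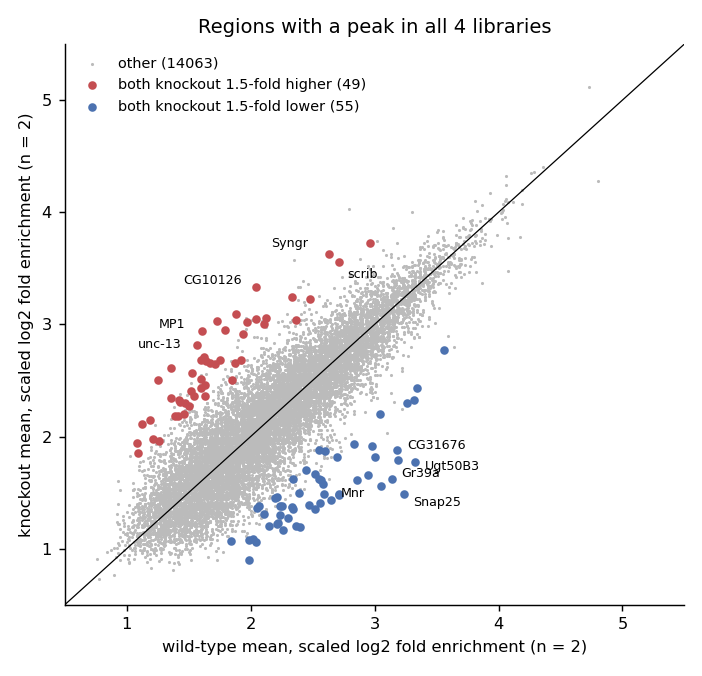
Mean scaled log2 fold enrichment of the 2 wild-type (x axis) and 2 Δl(3)mbt libraries (y axis) at the 14167 regions with a peak in all 4. Each point is a region, the line marks equality, and coloured points are those where the libraries of the genotypes stand at least 1.5-fold apart (49 higher in red, 55 lower in blue), with the 10 named regions labelled.

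Shared regions on chromosome 4 leaned towards higher values in Δl(3)mbt OSCs. Of those, 70.4% (81) had a positive log2 difference, with a median of 0.19, beside 50.3% and 0.00 over all regions. On X 44.1% did, with a median of −0.03. Promoter summits within 0.25 kb of a TSS had a median of 0.04, introns −0.07 and coding exons −0.20 (16.5% of 243 positive). Wild-type replicate 1 stood apart in both of the larger shifts. On chromosome 4 the median deviation of the log2 pileup from the mean of the 4 libraries was −0.22 and 0.07 in wild-type and 0.03 and 0.14 in Δl(3)mbt replicates 1 and 2. In coding exons it was 0.47 and −0.16 against −0.02 and −0.27. In both classes the value of wild-type replicate 2 lay between the Δl(3)mbt values.

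Along the chromosomes, the summit pileup of neighbouring regions moved together in 3 long stretches, which fold enrichment scarcely shows. The pileup is the count of overlapping extended read ends at the summit, and fold enrichment divides it by the local background. On 3R (0.8 Mb from position 26600001, 129 genes) the 66 shared regions had a median log2 pileup difference of 0.82, with 92.2% positive, but a median difference in fold enrichment of 0.13. The median deviation of the log2 pileup from the mean of the 4 libraries was −0.40 and −0.40 in wild-type and 0.39 and 0.41 in Δl(3)mbt replicates 1 and 2. The local background around these peaks, in multiples of the commonest background of each library, had a median of 1.00 and 1.05 in wild-type and of 1.65 and 1.9 in Δl(3)mbt OSCs. Both measures were thus higher in both Δl(3)mbt libraries.

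On 3L (0.4 Mb from position 600001, 70 genes) the 69 shared regions had a median log2 pileup difference of 0.58 and one of −0.12 in fold enrichment. The local background was 2.21 and 2.07 in wild-type and 3.32 and 3.7 in Δl(3)mbt OSCs. On X the first 4.5 Mb went the other way, with a median log2 pileup difference of −0.31 over 571 shared regions, 11.2% of them positive. The local background there was 1.74 and 1.64 in wild-type and 1.36 and 1.41 in Δl(3)mbt OSCs. In windows of 100 kb with at least 5 shared regions, the median difference outside the 3 stretches was 0.02, with 5% of 926 windows below −0.21 and 5% above 0.21, and a range of −0.72 to 0.71. Single windows outside thus overlapped the ranges inside: 8 of the 16 windows above 0.4 and 23 of the 42 below −0.3 lay outside the stretches. Of such windows, the 5 in the 3R stretch ran from 0.51 to 1.14 and the 3 in the 3L stretch from 0.48 to 0.63. The 37 in the X stretch ran from −0.55 to −0.06.

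**Figure D5:**
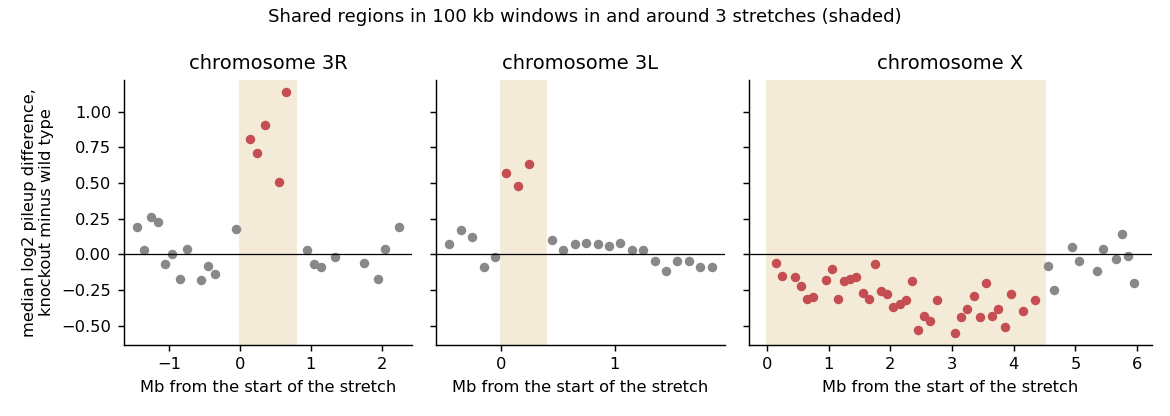
Median log2 difference in summit pileup, Δl(3)mbt minus wild type (y axis), of the shared regions in 100 kb windows with at least 5 of them, against the distance in Mb from the start of each of 3 stretches (shaded, red points). Windows beside the stretches (grey) lie near 0, those on 3R and 3L are positive and those on X negative.

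The stretches held an uneven number of changed regions. The 3R stretch had 31 gained of 223 regions (13.9%, beside the 3.78% of all), 22 of them strict, and 2 lost. The 3L stretch had 12 gained of 196 (6.12%) and 0 lost. The X stretch had 26 gained (2.18%) and 37 lost (3.1%) of 1195, 22 of the lost being strict. Among the regions named above, PolA2 and both regions of l(3)mbt, the deleted gene, lie in the 3R stretch, and br, arm, sgg and the lower region of kirre in the X stretch. The peak at bigmax, a member of the Mlx family and a neighbour of l(3)mbt, shows the size. Its summit pileup was 178 and 110 in wild-type and 498 and 451 in Δl(3)mbt OSCs. Its fold enrichment was 4.32 and 7.56 against 5.61 and 8.2, which overlaps. A difference in copy number and a regional change in accessibility cannot be told apart here, and neither was tested. The stretches were delimited after their values were seen. Outside them 1175 gained and 571 lost regions remained, 3.75% and 1.82% of 31325.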

How the data were processed

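ATAC-seq peak lists of 4 OSC and 5 ovary libraries were used, on dm6 coordinates. Per the submitters' processing notes and the methods, the authors trimmed reads with cutadapt 1.18, aligned them with BWA, filtered them with Picard 2.9.0 and SAMtools 1.9, and called peaks in each library with MACS2 2.1.1.20160309. The fold enrichment of a summit was deposited by the authors as the ratio of pileup to local background within a library, 1 being added to both. The −log10 p and −log10 q values were deposited by the authors from the same peak calling. The summit pileup and the local background were recovered from fold enrichment and −log10 p, with a solution found for between 98.7% (lowest library) and 100% (highest) of peaks. The authors' DiffBind 3.0.15 table of log2 fold changes and false discovery rates, their merged peak lists and their coverage tracks were not used.

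Equal numbers of top peaks were merged where they overlapped by 1 bp or more, and each region took the library presence of those peaks. Positions came from the Ensembl 115 annotation (BDGP 6.54, 17796 genes, 23630 start sites). A region took each gene with a TSS within 1 kb of its summit, otherwise the gene that contained it, otherwise the gene of the nearest TSS. Named regions were the 12 strict gained and 12 strict lost with the largest −log10 q in the weaker library, the 5 shared regions with the smallest p in each direction, members of 15 gene lists (236 of 238 names matched) with a changed promoter region, and ovo, l(3)mbt and bigmax. Of these, 1 strict gained region in an intron is not reported here. Regions with a peak in all libraries were fitted in limma 3.58.1 (R 4.3.3) with no pseudocount, and the scripts were tested on simulated data. Samples were grouped by their labelled genotype. The members, lists and comparisons were chosen with earlier results of these data known.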

Additional observations from a re-analysis of the deposited data

How the results depend on the processing

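The numbers of gained and lost regions moved with the number of top peaks. With 15000 per library there were 673 gained and 268 lost regions (124 and 46 strict), with 61.2% and 36.9% at promoters. With 10000 there were 407 and 254 (13 and 15 strict), with 68.3% and 40.9%. With all peaks there were 1419 and 633, all strict by construction, with 50.5% and 27.2%. Requiring the summit inside the region and 50% coverage gave 1706 gained (604 strict) and 333 lost regions (102 strict), which widened the excess of gained regions. Within 0.25 kb of a TSS the promoter shares were 28.2% and 10.3%. Leaving out 1 library at a time gave 2040 to 4161 gained, 840 to 6419 lost, 1382 to 2270 strict gained and 341 to 3230 strict lost regions, since fewer libraries had to agree. The 12 named gained and 12 named lost regions were each called at 11 or 12 under every setting. With a library left out or with all peaks, this follows largely from their strict definition.

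In limma, summit pileups gave 2 regions higher and 0 lower, and median centring, top peaks in all 4 libraries and a pseudocount of 0.5 gave 0 and 0. Leaving out 1 library gave 0 to 19 higher and 0 to 8 lower. With the replicate number as a block, 103 were higher and 86 lower. The labels do not say that a number marks a shared batch, so the numbers are taken as a shared number only. The deviations of same-numbered libraries nevertheless correlated at 0.48, and the main fit takes no account of this. For the 10 named shared regions, none of 90 values over 9 settings reversed, and all 10 passed the threshold under the block. These regions were picked by small p in the same data, and their genotypes stood at least 1.5-fold apart. Their sign could hardly reverse, so neither result is independent support. Presence calls are limited by depth, since the weakest pileup called differed between libraries. The counts of regions standing 1.5-fold apart and those without the 3 stretches were chosen after seeing the data.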

Other observations

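In regions with a peak in all 4 OSC libraries, members of the gene lists showed small differences in promoter accessibility. Replication genes had a median log2 difference, Δl(3)mbt minus wild type, of 0.09 (17 of 20 genes positive), and insulator genes of 0.10 (7 of 10). Neuronal genes had 0.19 (6 of 7) and germline piRNA genes −0.10 (3 of 7), beside 0.04 over all genes (4851 of 8210 positive). The other lists ran from −0.17 (testis, 1 gene) to 0.07 (hemocyte, 5 genes). The 17 such regions on the Y annotation had a median of −0.20 with 1 positive. Their median log2 pileup deviated from the mean of the libraries by 0.30 and −0.04 in wild-type and by −0.01 and −0.28 in Δl(3)mbt replicates 1 and 2. Wild-type replicate 1 and Δl(3)mbt replicate 2 thus lay farthest from the mean, on opposite sides. These are descriptions without a test.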
